A study of Mus musculus with 12 samples.

Results

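The genes examined here build and control mitosis: 39 genes of the cyclin-CDK1 engine, the mitotic kinases, the ubiquitin machinery that ends mitosis, the spindle checkpoint, the kinetochore, the spindle and the cytokinetic apparatus. They were chosen by symbol from a list set with earlier results of these data known. All 39 were found among the 15113 genes of the deposited table. C2C12, a mouse myoblast line, was grown in medium with 10% FBS to confluence and switched to 2% horse serum so that the cells fused into myotubes, with passages given as 2 to 5. Myotubes received 20 µM BAM15, a mitochondrial protonophore that uncouples respiration from ATP synthesis, in DMSO, or DMSO vehicle alone, for 16 h. Total RNA was turned into 3′ QuantSeq libraries, in which reads fall near the poly(A) end of a transcript, and 6 libraries per condition were sequenced with 50-bp forward reads. The read length and passages are those of the sample records, and the study's methods state other values for both. Both conditions therefore share the line, the serum step and the solvent, and nothing in the sample records says whether the 6 libraries of a condition came from separate cultures. P-values below measure the spread between these libraries only, which may be technical.

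Myotubes are postmitotic, and mitotic transcripts in a differentiated C2C12 dish are usually ascribed to mononucleated cells that did not fuse. Most genes of this program are transcribed in G2 and mitosis. They are repressed outside the cycle by the DREAM complex and induced by B-MYB and FOXM1, acting through a promoter element called the CHR (cell cycle genes homology region) together with CCAAT boxes bound by NF-Y. CDK1 with cyclins A and B drives entry into mitosis, the kinetochore couples chromosomes to microtubules, the checkpoint holds anaphase until all are attached, and the anaphase-promoting complex (APC/C) with its E2 enzyme then destroys the cyclins.

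After BAM15 nearly all of the mitotic genes were lower. All 39 fitted log2 fold changes were negative, with a median of −1.60 against 0.02 for all 12730 genes tested, and they ran from −2.31 for Birc5 to −0.81 for Racgap1. A gene was called if its adjusted p-value was under 0.01, its mean over the 12 libraries (base mean) exceeded 50 normalized counts and it differed over 2-fold. By these 3 thresholds 33 of the 39 genes fell and 0 rose, where 3.58% of all tested genes fell and 3.7% rose by edgeR's quasi-likelihood test (Benjamini-Hochberg over all tested genes). By the adjusted p-value alone 38 of 39 were lower, where 20.3% of all tested genes were. In 38 of 39 genes every BAM15 library lay below every vehicle library, against 17% of tested genes, and the exception was Cks2. The reads of the 39 genes summed to 489 to 529 CPM (counts scaled to a common library size) in the BAM15 libraries and to 1369 to 1489 in the vehicle libraries. In bulk RNA, fewer cycling cells and less of each transcript per cycling cell cannot be told apart.

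**Figure D1:**
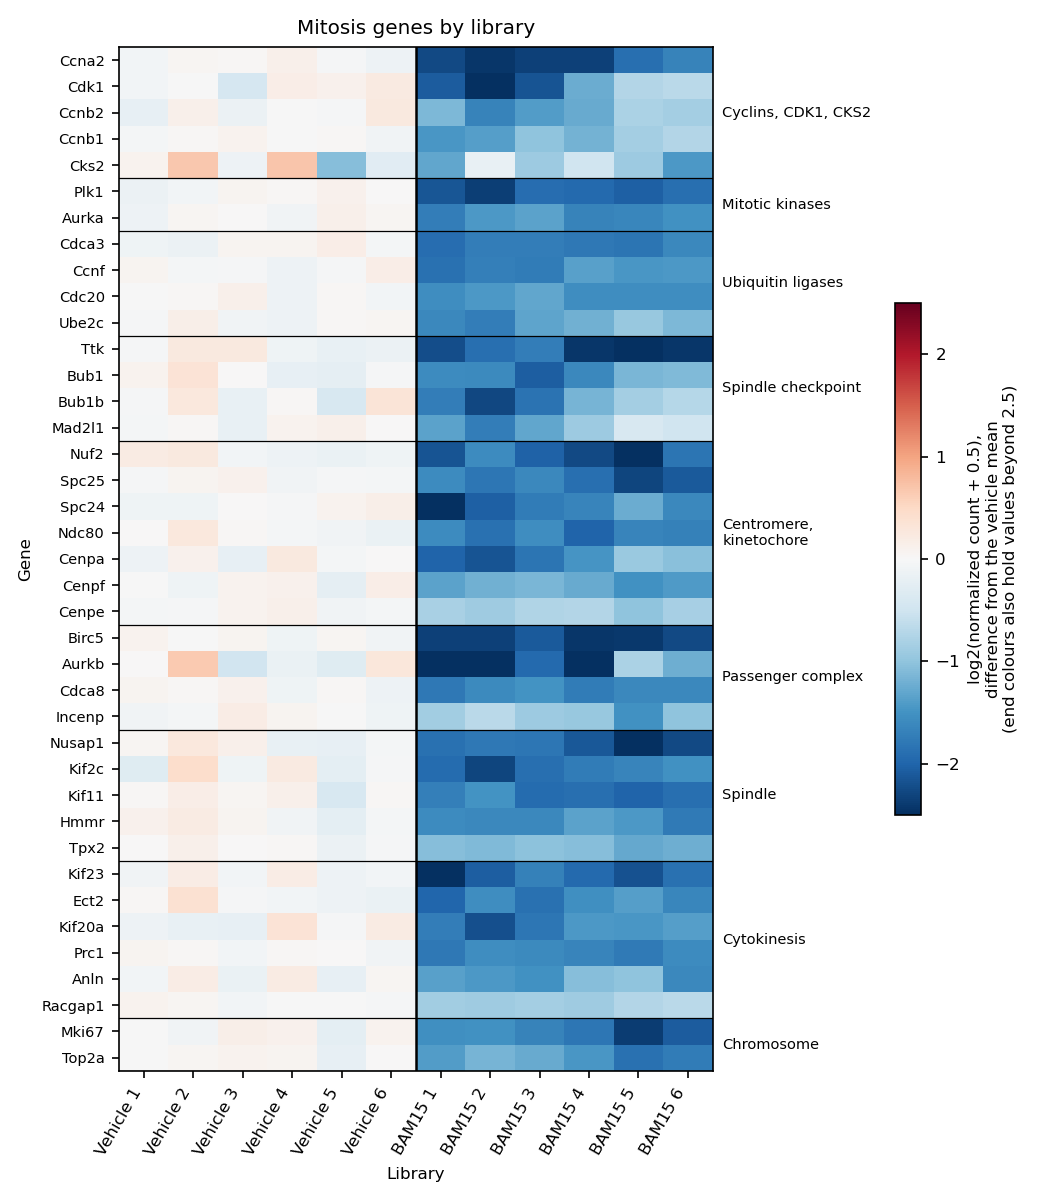
Each row is 1 of the 39 genes, grouped by role, and each column 1 of the 12 libraries. Colour gives the difference of log2(normalized count + 0.5) from the mean of the 6 vehicle libraries. The BAM15 columns are blue in every row, with 1 nearly white cell in Cks2, and Cdk1, Bub1b and Mad2l1 are paler in BAM15 libraries 4 to 6 than in 1 to 3.

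The promoters of 5 genes that were lower by different amounts, and of the gene that fell most, are shown because the list is defined by function while these elements are read from sequence alone. Sequences are from RefSeq on GRCm38.p6, each running 5′ to 3′ from 150 bases before to 30 bases after the RefSeq gene start, on the strand of the gene. Capitals mark the CHR (TTTGAA or TTCGAA on either strand, so TTCAAA on the other) and the CCAAT box (CCAAT, or ATTGG on the other strand). They are Ttk at chr9:83834539-83834718 (plus strand), Kif23 at chr9:61946770-61946949 (minus), Racgap1 at chr15:99651627-99651806 (minus), Ccnb2 at chr9:70421525-70421704 (minus), Cdk1 at chr10:69352883-69353062 (minus) and Birc5 at chr11:117849087-117849266 (plus).
Ttk: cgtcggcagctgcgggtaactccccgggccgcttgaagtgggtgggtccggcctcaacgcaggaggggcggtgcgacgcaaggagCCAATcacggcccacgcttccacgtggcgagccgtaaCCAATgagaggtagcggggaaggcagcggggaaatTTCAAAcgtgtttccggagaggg
Kif23: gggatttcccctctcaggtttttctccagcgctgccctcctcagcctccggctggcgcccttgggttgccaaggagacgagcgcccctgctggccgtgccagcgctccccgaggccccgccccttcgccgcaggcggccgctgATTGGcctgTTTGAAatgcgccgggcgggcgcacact
Racgap1: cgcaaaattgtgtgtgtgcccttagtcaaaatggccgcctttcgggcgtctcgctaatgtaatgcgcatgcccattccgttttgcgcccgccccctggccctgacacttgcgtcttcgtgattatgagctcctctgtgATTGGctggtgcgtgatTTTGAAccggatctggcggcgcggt
Ccnb2: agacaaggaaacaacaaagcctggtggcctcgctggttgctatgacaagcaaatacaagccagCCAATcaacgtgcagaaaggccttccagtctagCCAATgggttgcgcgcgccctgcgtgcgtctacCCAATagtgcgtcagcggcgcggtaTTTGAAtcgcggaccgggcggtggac
Cdk1: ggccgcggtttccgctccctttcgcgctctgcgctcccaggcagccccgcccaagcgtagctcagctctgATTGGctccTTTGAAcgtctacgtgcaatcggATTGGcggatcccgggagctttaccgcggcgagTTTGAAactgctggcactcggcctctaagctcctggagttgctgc
Birc5: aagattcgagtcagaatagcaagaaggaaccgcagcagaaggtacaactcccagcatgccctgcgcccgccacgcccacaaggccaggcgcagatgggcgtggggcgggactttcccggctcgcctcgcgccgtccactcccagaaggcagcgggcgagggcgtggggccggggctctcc

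Of the 39 genes, 33 had a promoter in the RefSeq table, which covers 250 bases before to 50 after the start. A CHR within 100 bases before to 50 after the start was present in 25 of these 33 (75.8%), in 5.14% of the 9587 tested genes with a promoter and in 8.59% of all 32851 promoters in the table. At least 2 CCAAT boxes were present in 19 of 33 (57.6%), against 14.7% of tested genes. Both features together were present in 17 of 33 (51.5%), against 1.04% of tested genes. For E2F sites only the letters TTTGGCGC and TTCCCGC (either strand) were searched. They were in 0 of 33 windows and in 9.52% of those of tested genes. Other forms, such as the TTTCGCGC in the Cdk1 stretch above, were not searched, so this 0 does not mean that E2F-type letters are absent. In 9 of the 19 promoters with several CCAAT boxes a pair of them started 31 to 34 bases apart, a range chosen after the positions were seen, against 13.7% of the 1413 tested promoters with several boxes. Ccnb2 above shows this arrangement, with boxes at −87, −54 and −21 and a CHR at 5 bases after the start.

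The log2 fold changes of genes with and without these letters ranged over much the same values, and the difference was not tested. Genes with a CHR near the start had a median log2 fold change of −1.56 (25 genes, −2.19 to −0.81) and those without one −1.46 (8 genes, −2.31 to −0.84). These 8 include Kif2c (−1.85), which holds a CHR at −103, outside the range counted as near. Of the others, Birc5, Nusap1 and Nuf2 lay at −2.31 to −2.08 and Ccnb1, Mad2l1, Cks2 and Cenpe at −1.08 to −0.84. The median of −1.46 thus falls in a gap and depends on where Kif2c is placed. Genes with at least 2 CCAAT boxes had a median of −1.51 (19 genes) and those with 0 or 1 box −1.77 (14 genes). Birc5 fell most and held neither motif in the window, whereas Racgap1 had the smallest change and held 1 of each. Kif23, the partner of Racgap1 in a cytokinesis complex, also held 1 of each and had a log2 fold change of −2.04. The CCAAT box starts at −7 in Kif23 and at −12 in Racgap1, and the CHR at 3 and at 6 bases after the start. Among tested genes with both a CHR near the start and at least 2 CCAAT boxes, 27 of 100 fell past the thresholds by edgeR. When the 39 genes were left out, 10 of 83 did, against 334 of 9587 (3.48%) tested genes with a promoter. The median log2 fold change of those 83 was −0.06. Of them 3 (3.61%) rose past the thresholds, where 3.62% of tested genes with a promoter did. These matches describe letters in a window, not bound sites. The promoters of Ccna2, Spc24, Aurkb, Incenp, Tpx2 and Kif20a were not examined.

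**Figure D2:**
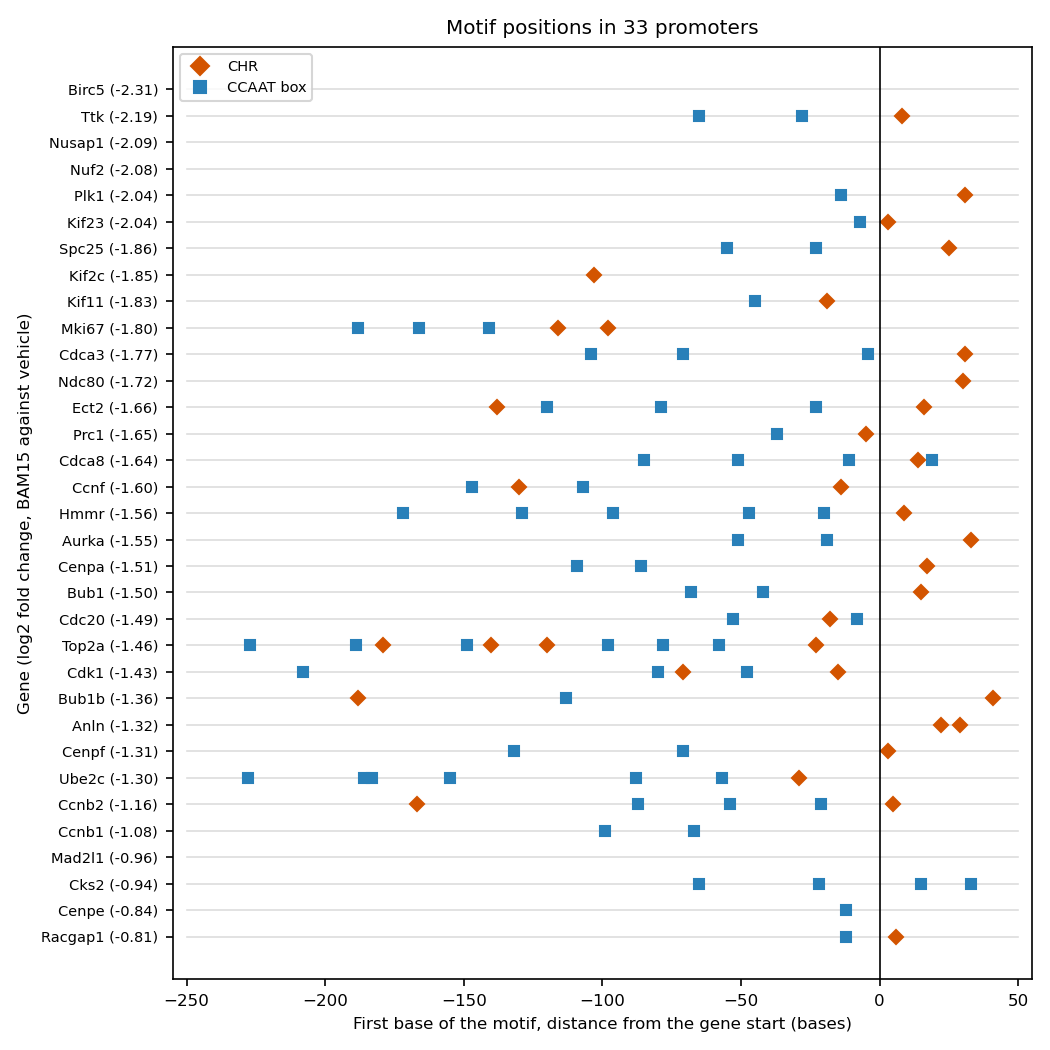
Each row is 1 of 33 genes ordered from the largest fall (top) with its log2 fold change in brackets, and symbols give the first base of each CHR (diamonds) and CCAAT box (squares) as distance from the gene start in bases. A CHR lies near the start in 25 of the 33 genes, with fold changes from −2.19 to −0.81, and the 8 without one run from −2.31 to −0.84.

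The engine of mitotic entry comprised 5 genes, of which 4 fell, with a median log2 fold change of −1.16. Ccna2, cyclin A2, was the largest fall of these. Its normalized counts were 399.5, 438 and 478 (lowest, median and highest) in the vehicle libraries and 79.9, 88.4 and 137 in the BAM15 libraries. The groups did not overlap, and the log2 fold change was −2.13 ± 0.12 (SE, edgeR adjusted p = 1.4e-09). The mitotic cyclins proper fell less. Ccnb1 had 392, 418 and 442 counts in vehicle and 151, 195 and 249.8 in BAM15 libraries, a log2 fold change of −1.08 ± 0.11 (edgeR adjusted p = 1.0e-06). Ccnb2 ran from 268 through 304 to 362 in vehicle and from 96.1 through 134 to 176 in BAM15, a change of −1.16 ± 0.14 on the log2 scale. Neither B-type cyclin overlapped between conditions. Cdk1, the kinase they activate, had 727, 1001 and 1128 counts in vehicle and 134, 319 and 610.5 in BAM15 libraries. Its groups did not overlap, but its BAM15 libraries spread more widely than those of most of these genes, so that its log2 fold change of −1.43 carried an SE of 0.33 (edgeR adjusted p = 0.0026). Cks2, a small CDK-binding subunit, was barely counted, at 9.28 to 32.5 in vehicle and 7.0 to 17.3 in BAM15. Its groups overlapped and its log2 fold change of −0.94 ± 0.31 did not pass (edgeR adjusted p = 0.019), and 22.8% of the 50-base windows in its last 400 bases also occur in Gm12891, Gm15452 or Gm19945.

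Both mitotic kinases fell. Plk1, which acts on centrosomes, kinetochores and the midbody, had 674, 761 and 804 counts in vehicle and 146, 189 and 202 in BAM15 libraries, a log2 fold change of −2.04 ± 0.08 (edgeR adjusted p = 3.6e-11). Aurka, the centrosomal Aurora kinase, had 272, 305 and 325 against 89.3, 100.3 and 118, a change of −1.55 ± 0.09. The libraries of each condition lay close together and far from the other condition in both genes.

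The 4 genes of the ubiquitin machinery all fell. Cdc20, the activator of the APC/C in mitosis, went from 579, 639 and 695 counts to 216, 216 and 258, a log2 fold change of −1.49 ± 0.07. Ube2c, the E2 enzyme of the APC/C, went from 943, 1027 and 1130 to 309, 428 and 529, a change of −1.30 ± 0.11. Neither overlapped between conditions. Ccnf, the cyclin F subunit of an SCF ligase, and Cdca3, a trigger of mitotic entry, had log2 fold changes of −1.60 and −1.77. The core of the APC/C was measured for comparison. Of 17 genes for its subunits, activators and inhibitors outside the 39, only 1 passed the thresholds, the inhibitor Fbxo5 (−1.77 ± 0.13, edgeR adjusted p = 3.0e-08), and their median log2 fold change was −0.04.

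In the spindle checkpoint 3 of 4 genes fell. Ttk, the kinase MPS1 at the top of the checkpoint, had 271, 293 and 366 counts in vehicle and 51.6, 61.6 and 93.1 in BAM15 libraries. No BAM15 library came near the vehicle range, and the log2 fold change was −2.19 ± 0.15 (edgeR adjusted p = 8.2e-09). Bub1, a checkpoint kinase at kinetochores, and Bub1b, the BUBR1 subunit of the mitotic checkpoint complex, changed by −1.50 ± 0.16 and −1.36 ± 0.23 on the log2 scale. Mad2l1, the MAD2 protein of the same complex, had 181, 208 and 226 counts against 61.6, 96.8 and 156. Its groups did not overlap, yet its log2 fold change of −0.96 ± 0.19 was under 2-fold (edgeR adjusted p = 5.2e-04).

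Of 7 centromere and kinetochore genes, 6 fell, with a median log2 fold change of −1.72. The 4 subunits of the NDC80 complex, which grips microtubules, changed by −2.08 (Nuf2), −1.86 (Spc25), −1.76 (Spc24) and −1.72 (Ndc80). Nuf2 had 148, 156 and 197 counts in vehicle and 24.4, 38.7 and 55.1 in BAM15 libraries. Cenpa, the histone H3 variant that marks centromeres, had 270.4, 308 and 366 against 69.1, 99.3 and 163, a log2 fold change of −1.51 ± 0.19 (edgeR adjusted p = 9.0e-06). Neither gene overlapped between conditions. Cenpf, a large kinetochore protein, changed by −1.31 ± 0.08. Cenpe, a kinesin that carries chromosomes to the metaphase plate, had 968, 1004 and 1123 counts in vehicle and 511, 583 and 622 in BAM15 libraries. It was lower in every BAM15 library, but its log2 fold change of −0.84 ± 0.06 stayed under 2-fold (edgeR adjusted p = 3.1e-08). Outside the 39 genes, 8 of 27 other centromere and kinetochore genes fell and 0 rose, led by Cenpk (−1.67 ± 0.13) and Cenpm (−1.64 ± 0.10).

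The chromosomal passenger complex, which corrects attachments and later steers cytokinesis, held both the largest fall and some of the smaller ones. Birc5, survivin, had 1873, 2038 and 2153 counts in vehicle and 375, 400.4 and 472 in BAM15 libraries. The lowest vehicle library was far above the highest BAM15 library, and the log2 fold change was −2.31 ± 0.07 (edgeR adjusted p = 7.7e-13). Cdca8, borealin, changed by −1.64 ± 0.07. Incenp, the scaffold, had 627, 658 and 759 counts against 235, 352 and 422, a log2 fold change of −0.97 ± 0.11 that was under 2-fold (edgeR adjusted p = 2.7e-06). Aurkb, the kinase of the complex, was counted little, at 37.3 to 81.9 counts in vehicle and 7.77 to 30.04 in BAM15. It did not overlap, but its mean of 34.5 normalized counts over the 12 libraries was under the base mean threshold (log2 fold change −1.83 ± 0.32, edgeR adjusted p = 1.8e-04).

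All 5 spindle genes fell. Nusap1, a microtubule-bundling protein, had 718, 827 and 995 counts in vehicle and 113, 208 and 239 in BAM15 libraries, a log2 fold change of −2.09 ± 0.16 (edgeR adjusted p = 4.1e-08). Its groups were far apart. Kif2c, a kinesin that depolymerizes microtubules, and Kif11, the kinesin that pushes spindle poles apart, changed by −1.85 ± 0.16 and −1.83 ± 0.12. Of the windows in the last 400 bases of Kif11, 12.3% occur in other transcripts, and 10.3% of those of Cenpf do. Shares for Mki67, Ndc80, Nuf2 and Tpx2 were 5.70% or less. Hmmr, a spindle-assembly protein, changed by −1.56 ± 0.09. Tpx2, the microtubule-bound activator of Aurora A, changed least, from 819, 907 and 989 counts to 371, 425 and 445 (−1.13 ± 0.06). Of 11 other mitotic kinesin and midbody genes 7 fell and 0 rose, with Kif15 at −2.08 ± 0.11 and Cep55 at −1.68 ± 0.21.

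Of 6 cytokinesis genes, 5 fell. Kif23, the motor of centralspindlin, had 295, 307 and 365 counts in vehicle and 55.3, 80.0 and 99.7 in BAM15 libraries (log2 fold change −2.04 ± 0.12, edgeR adjusted p = 2.5e-09). Racgap1, the GTPase-activating partner of Kif23, had 1014, 1045 and 1122 against 572, 585 and 664. No library overlapped in either gene, but the log2 fold change of Racgap1 was only −0.81 ± 0.06 (edgeR adjusted p = 1.1e-08). Ect2, the RhoA activator recruited by centralspindlin, changed by −1.66 ± 0.13, and Anln, the anillin scaffold of the contractile ring, by −1.32 ± 0.12. Prc1, which bundles the central spindle, and Kif20a, which works with it there, changed by −1.65 and −1.66. The last 400 bases of Prc1 and Kif20a overlap exons of Rccd1 and Cdc23 on the opposite strand over their full length. Those of Ccna2 (47 bases, Exosc9) and Cdc20 (53 bases, Elovl1) do so in part. The strand used for counting is not given in the sources used here.

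**Figure D3:**
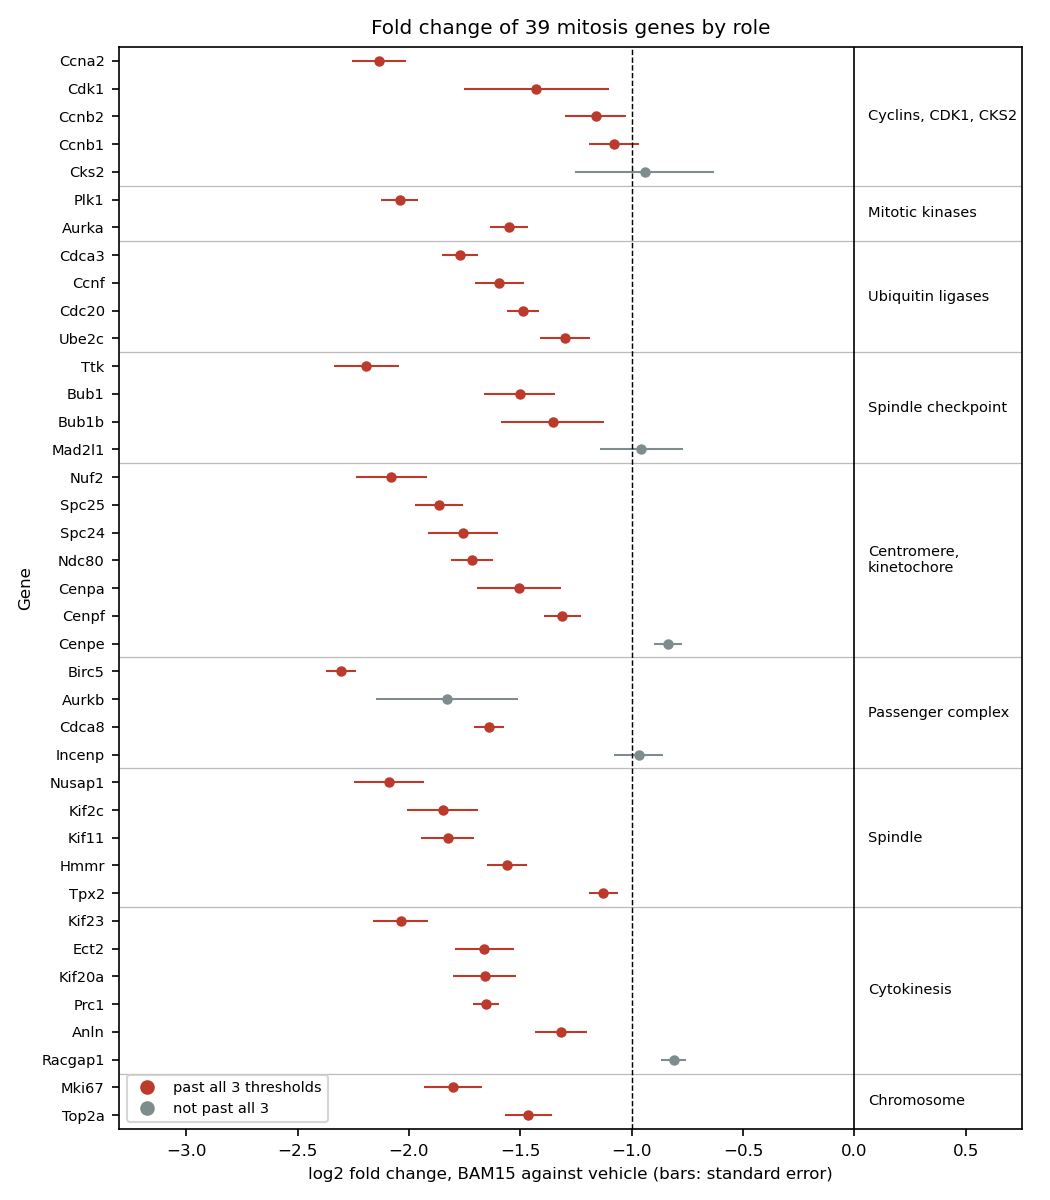
Points give the log2 fold change of BAM15 against vehicle for each of the 39 genes by role. Bars give the standard error derived from edgeR's F statistic (n = 6 libraries per condition). The dashed line marks a 2-fold fall. Red points passed all 3 thresholds (33 genes), and all 39 points lie below 0, from −2.31 to −0.81.

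Top2a, the topoisomerase that untangles sister chromatids, had 2799, 3306 and 3438 counts in vehicle and 888, 1202 and 1450 in BAM15 libraries. Mki67, the Ki-67 protein that coats mitotic chromosomes and is the usual proliferation marker, had 615, 751 and 813 against 141, 219 and 257. The conditions were well apart in both, with log2 fold changes of −1.46 ± 0.11 and −1.80 ± 0.13. Of 18 other genes of cohesin, condensin and their regulators, 9 fell and 0 rose, with Ncaph at −1.80 ± 0.27 and Sgo1 at −1.71 ± 0.16. Of 12 other mitotic kinases and phosphatases only Mastl, the Greatwall kinase, fell (−1.52 ± 0.15), and their median log2 fold change was −0.14.

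Partner genes did not all change in step. The log2 ratio of the counts of 9 pairs whose products work together was taken within each library, which no scaling changes. It was compared by a two-sided exact permutation test over all splits of 6 against 6 libraries, with Benjamini-Hochberg adjustment over the 9 pairs. The pairs were chosen with earlier results of these data known, and the adjustment does not account for that choice. For Kif23 to Racgap1 the mean log2 ratio was −1.71 ± 0.14 (SD, n = 6) in vehicle and −2.95 ± 0.29 in BAM15, with no overlap (exact p = 0.0022, the smallest that these splits allow, and adjusted p = 0.0065). Birc5 to Cdca8 went from 1.26 ± 0.04 to 0.60 ± 0.09, and Aurka to Tpx2 from −1.59 ± 0.15 to −2.02 ± 0.17, with the same exact p-values. In these 3 pairs the ratio was lower in 6 of 6 BAM15 libraries than in any vehicle library. The differences for Aurkb to Incenp (−0.96) and Ndc80 to Nuf2 (0.38) did not pass (exact permutation test, adjusted p = 0.13 for both). Those for Ccnb1 to Ccnb2 (0.08), Bub1 to Bub1b (−0.09), Spc24 to Spc25 (0.08) and Cdc20 to Ube2c (−0.17) were within the spread of the libraries (exact permutation test, adjusted p of 0.45 to 0.78). For Spc24 to Spc25 that spread was itself unequal, with an SD of 0.69 in BAM15 and 0.14 in vehicle. Its mean log2 ratio was −2.20 in BAM15 libraries 1 to 3 and −1.16 in 4 to 6. The same sets gave 0.26 and −0.31 for Bub1 to Bub1b and −0.57 and −1.15 for Cdc20 to Ube2c, but 0.56 and 0.49 for Ccnb1 to Ccnb2. For Cdc20 to Ube2c, BAM15 libraries 4 to 6 (−1.05, −1.29 and −1.12) lay below every vehicle library (lowest −0.83). These set differences in ratio were not tested.

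**Figure D4:**
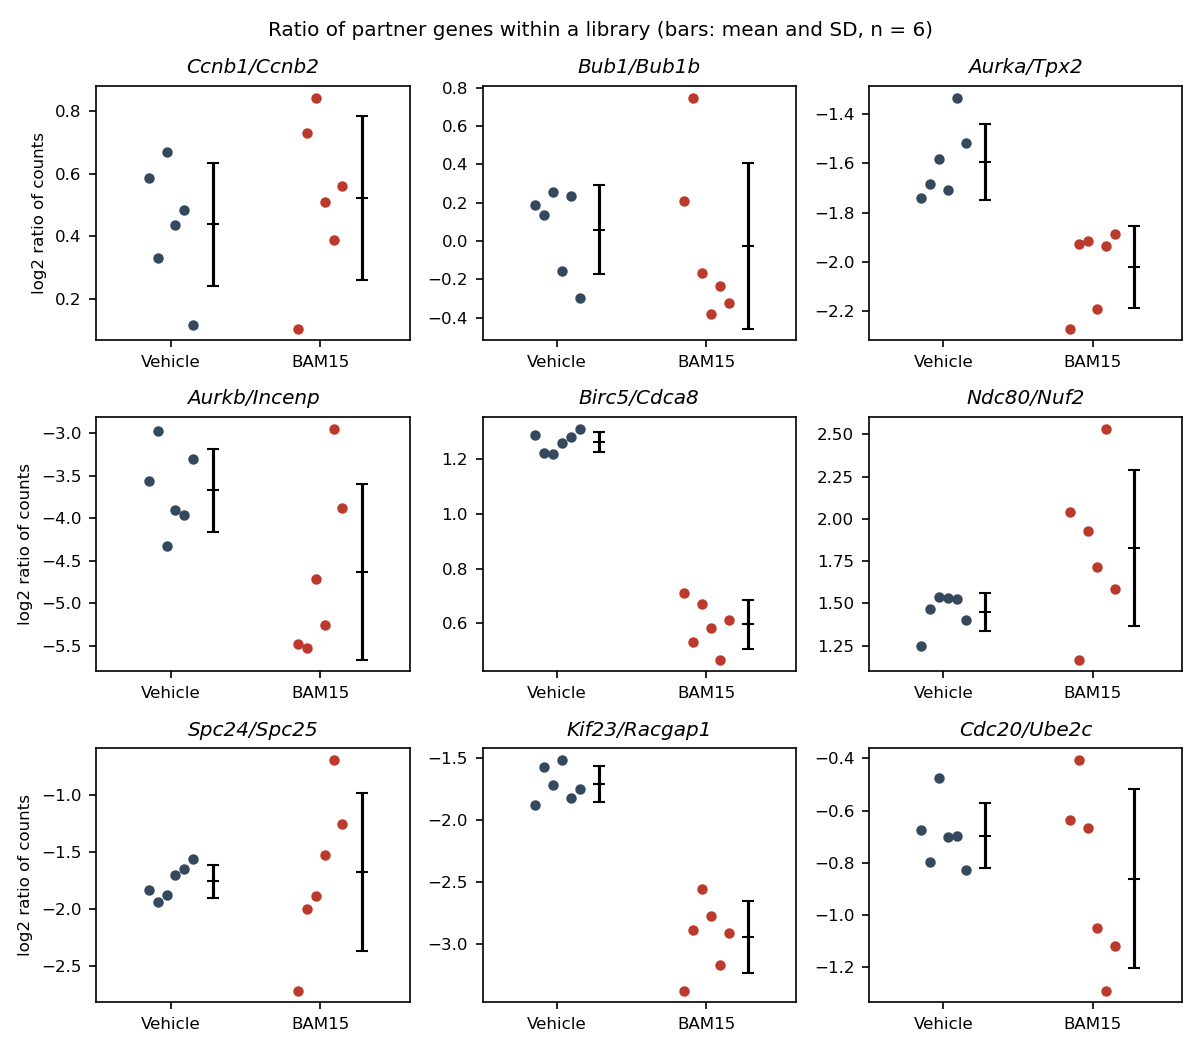
Each panel shows, for 1 pair of partner genes, the log2 ratio of their counts in each of the 6 vehicle and 6 BAM15 libraries, with bars for mean and SD. Axes differ between panels and do not start at 0. The conditions separate in Aurka/Tpx2, Birc5/Cdca8 and Kif23/Racgap1 and overlap in the other 6 pairs.

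Within BAM15, libraries 4 to 6 stood apart from libraries 1 to 3, a split for which the sample records give no reason. When each condition and set of numbers was given its own term in the model, fitted to 13349 genes, 10 of the 39 genes were higher in BAM15 libraries 4 to 6 than in 1 to 3 and 5 were lower at an adjusted p-value below 0.05 by edgeR, where 17.9% and 19.1% of all tested genes were. The split thus ran through the whole table, and with both directions together the share of mitotic genes in it was near that of all genes. By direction, the share of mitotic genes that were higher was above that of all genes, and the share that were lower was below it. This lean was not tested. Without BAM15 replicate 5 these 15 calls became 8. In the vehicle libraries the same contrast gave 0 of the 39 genes by edgeR, as it gave 0% of all tested genes, with 4 at an unadjusted p-value below 0.05, where 5.43% of all tested genes had one.

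The values of the mitotic genes in that split describe how their BAM15 libraries vary. Cdk1, the gene with the largest of these differences, had 134, 215 and 230.1 counts in BAM15 libraries 1 to 3 and 408, 584 and 610.5 in libraries 4 to 6, a log2 difference of 1.46 ± 0.20 (SE, edgeR adjusted p = 3.0e-04). Bub1b had 24.8, 33.8 and 36.9 against 54.5, 67.6 and 74.7 (1.03 ± 0.24). Mad2l1 had 61.6, 81.5 and 83.7 against 110.0, 147 and 156 (0.86 ± 0.16). In each of these 3 genes the sets did not overlap with each other, and libraries 4 to 6 still lay below every vehicle library. Cenpa (0.86), Spc24 (0.59), Kif20a (0.47), Ube2c (0.46), Ccnb2 (0.42), Ccna2 (0.40) and Ccnb1 (0.35) were also higher. Those lower in libraries 4 to 6 were Nusap1 (−0.57), Ttk (−0.55), Mki67 (−0.51), Spc25 (−0.43) and Top2a (−0.41). Top2a had 1221, 1346 and 1450 counts in BAM15 libraries 1 to 3 and 888, 962 and 1182 in libraries 4 to 6. The vehicle libraries 4 to 6 were lower than 1 to 3 by −0.30 on the log2 scale in both Nusap1 and Ttk (edgeR unadjusted p = 0.018 for each), and those of Kif20a were higher by 0.35 (unadjusted p = 0.0069).

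**Figure D5:**
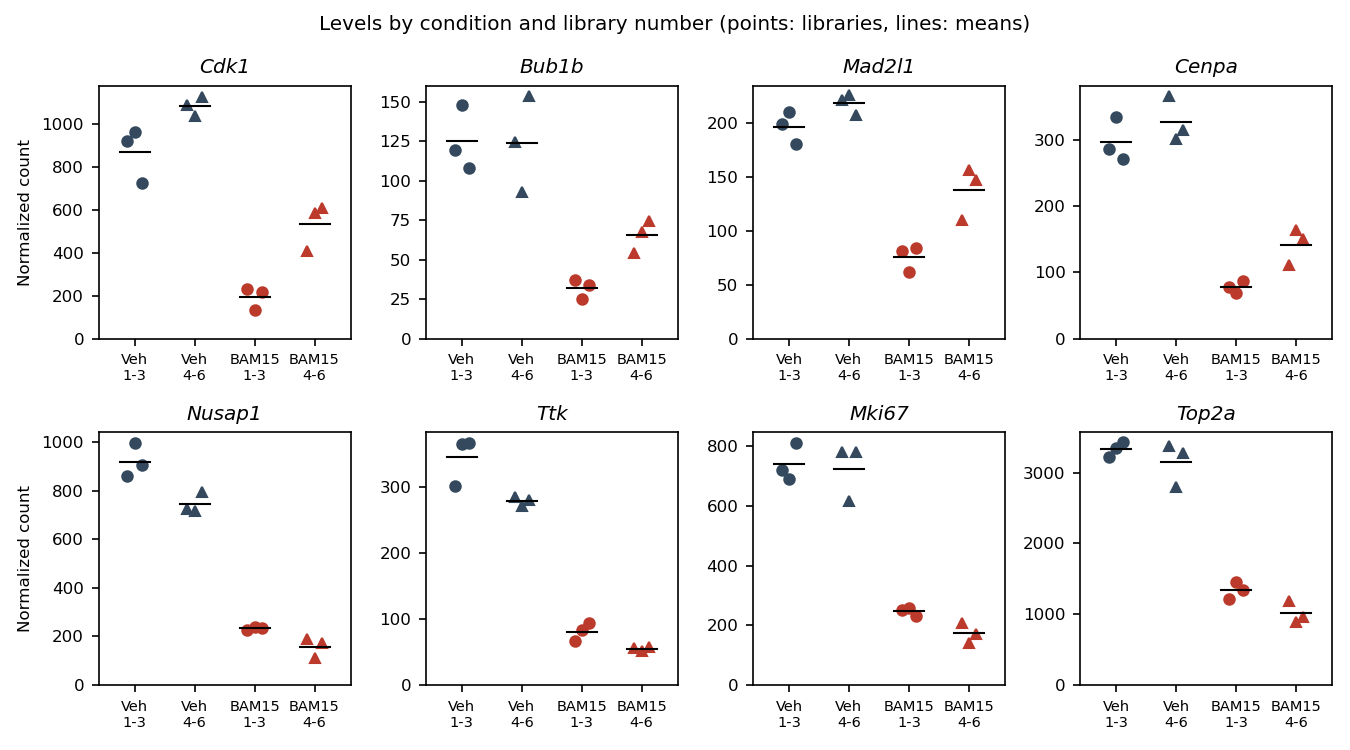
Each panel gives the normalized counts of 1 gene in vehicle (dark) and BAM15 (red) libraries numbered 1 to 3 (circles) and 4 to 6 (triangles), with lines for means (n = 3). In the top row BAM15 libraries 4 to 6 lie above 1 to 3, and in the bottom row below, while both sets lie under the vehicle libraries in all 8 genes.

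The fall itself was seen within both sets. Against vehicle libraries of the same numbers, all 39 log2 fold changes were negative in either set, 34 genes passed the 3 thresholds in numbers 1 to 3 (3.95% of tested genes fell) and 32 in numbers 4 to 6 (3.79%). The spindle checkpoint (4 genes) had a median log2 fold change of −1.93 in numbers 1 to 3 and −1.03 in numbers 4 to 6. Its gene Ttk went the other way, at −2.09 and −2.34. The 2 kinases had medians of −1.78 and −1.82. When the difference between the effects was tested, only Cdk1 passed, at −2.17 ± 0.20 in numbers 1 to 3 and −1.03 ± 0.18 in numbers 4 to 6, a difference of 1.14 ± 0.26 (edgeR interaction, adjusted p = 0.04996, where 1.69% of tested genes passed in that direction and 0.397% in the other). With single libraries left out in turn, the call was kept only without BAM15 replicate 4 or vehicle replicate 3, and without BAM15 replicate 2 the difference was 0.94 (edgeR adjusted p = 0.11). The number of genes that passed was 12 without BAM15 replicate 4, 3 without vehicle replicate 3 and 0 without any of the others.

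The known regulators of these promoters were measured too. Foxm1 had 323, 338 and 389 counts in vehicle and 85.4, 114 and 141 in BAM15 libraries, a log2 fold change of −1.61 ± 0.11 without overlap (edgeR adjusted p = 8.0e-09). Mybl2, which encodes B-MYB, had 20.2 to 38.1 in vehicle and 2.33 to 5.63 in BAM15, too few for the base mean threshold. These 2 were the regulators with the largest falls, and Foxm1 was the only one of 15 tested past the thresholds. Of the DREAM and MuvB genes, Rbl1 (−0.52) and Lin9 (−0.51) were lower at an adjusted p-value below 0.01, and Lin37 (0.25), Lin54 (0.19), E2f5 (0.19), Tfdp1 (−0.44), Tfdp2 (−0.25), Rbbp4 (−0.02) and Rbl2 (−0.02) did not pass it by edgeR. E2f4, at 0.13 over all libraries, differed by library number: its log2 fold change was −0.68 ± 0.21 in numbers 1 to 3 and 0.52 ± 0.19 in numbers 4 to 6 (edgeR interaction 1.197 ± 0.28, adjusted p = 0.049). Lin52 had too few counts to be tested. Of the NF-Y subunits, Nfya (0.66) and Nfyb (0.58) were higher and Nfyc (−0.43) lower at that level.

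Genes of the preceding cell cycle phases had smaller median changes. Of 33 DNA replication genes 10 fell and 0 rose, with a median log2 fold change of −0.79, led by Tk1 (−3.31 ± 0.11) and Mcm5 (−1.93 ± 0.13). Of 14 tested G1 genes and CDK inhibitors 4 fell, among them Ccne2 (−1.72 ± 0.14) and Ccnd1 (−1.42 ± 0.08), and 1 rose, Ccnd2 (1.43 ± 0.06).

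Markers of myoblasts, myotubes and fibroblasts were measured beside the mitotic genes. The cultures were of the C2C12 line, and whether they held any fibroblasts was not tested. Markers of undifferentiated myoblasts summed to 936 to 1038 CPM in BAM15 and 1222 to 1265 in vehicle libraries. Past the thresholds by edgeR, 4 of 12 were lower (Heyl −3.07, Sdc4 −1.15, Id2 −1.09 and Myod1 −1.03) and Myf5 was higher (1.69). At an adjusted p-value below 0.01 alone, 6 of the 12 were lower and 1 higher by edgeR. Myf5 had 188 to 297 normalized counts in BAM15 libraries 1 to 3 and 554 to 845 in libraries 4 to 6. Myotube markers were abundant in every library, at 25383 to 33786 CPM in BAM15 and 28489 to 31573 in vehicle, and 0 of 14 passed the thresholds, although 4 were lower and 2 higher at an adjusted p-value below 0.01 by edgeR. Their sums split by library number, at 31366 to 33786 in BAM15 libraries 1 to 3 and at 25383 to 28269 in libraries 4 to 6, the latter below every vehicle library. The sums also combine genes that moved in opposite directions. Acta1 was higher in every BAM15 library (156460 to 192475 normalized counts) than in any vehicle library (117809 to 135139). Mylpf (86388 to 107046 against 109105 to 117160), Mymx and Ckm were lower in every BAM15 library than in any vehicle library. Fibroblast markers summed to 1064 to 1289 in BAM15 and 1448 to 1657 in vehicle, and 0 of the 4 tested passed, with 3 lower at that level. Thy1 was not among the genes analysed and Lum reached 4 counts at most. The part of a changed mixture of cells in the fall of the mitotic genes was not tested.

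Total counts were 13983725 to 18751780 in the BAM15 and 15299135 to 18866728 in the vehicle libraries, so sequencing depth differed little between conditions.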

How the data were processed

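The authors aligned and counted 3′ QuantSeq reads with BlueBee software and deposited whole-number read counts per Ensembl gene without normalization; the submitters' processing notes list GRCm38, and the strand of counting is not given in the sources used here. The authors also deposited a signal table made with DESeq2 1.22.2, in which each library's counts are scaled by a single size factor (0.836 to 1.07), and which supplied gene symbols here. The 11 columns of samples outside this experiment were not used.

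Genes with low counts were removed with filterByExpr (2383 of 15113), libraries were scaled by TMM (factors 0.932 to 1.04), and BAM15 was compared with vehicle by the robust quasi-likelihood test of edgeR 4.0.16 in R 4.3.3, with Benjamini-Hochberg adjustment over the 12730 genes tested. Normalized counts are TMM-scaled. Standard errors of log2 fold changes were derived as the absolute log2 fold change divided by the square root of edgeR's F statistic. Thresholds were those of the study's methods. The 39 genes, the other lists, the 9 pairs and the split by library number were chosen with earlier results of these data known. All 39 genes may be named, with every listed regulator and, of each other list, the 2 largest falls and rises past the thresholds; cell type markers were also named. Motifs were searched in RefSeq promoters (GRCm38.p6), taking the first of 2 promoters for Ect2 and Prc1, and shared 50-base windows in the last 400 bases of GENCODE M21 transcripts. Alternatives were DESeq2 1.42.0, limma-voom (limma 3.58.1), other scalings, filters, blocks and thresholds, and leaving out each library. The edgeR tests were tested on simulated data. No library was a copy of another, since chi-square per gene was 4.98 or more for every pair within a condition. Depth limits genes with few reads, such as Cks2, and PCR copies are not independent molecules.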

Additional observations from a re-analysis of the deposited data

Results flagged for a closer look

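In 3 of the 78 groups of 6 libraries examined (39 genes in each condition), 1 library stood apart from the other 5 by Dixon's criterion, and chance alone gives about 5% of groups. Kif11 had 141 normalized counts in vehicle replicate 5, where the other vehicle libraries had 190 to 208. Top2a had 2799 counts in the same library, where the others had 3219 to 3438. Ect2 had 167 counts in vehicle replicate 2, where the others had 113 to 129. None of these libraries reached the BAM15 range of its gene. For Cdk1 the effect of BAM15 differed between libraries numbered 4 to 6 and 1 to 3 by 1.14 on the log2 scale (edgeR interaction, adjusted p = 0.04996).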

How the results depend on the processing

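Across 23 alternatives (scalings, filters, blocks, other tools, either set of library numbers, and each library left out), 884 of 895 values of the 39 genes kept their direction and their side of the thresholds and 0 reversed. All 39 genes stayed lower wherever they could be tested, and 31 were past the thresholds under each of these alternatives. Bub1b and Ccnb1 no longer passed within library numbers 4 to 6 only, while Incenp passed under 3 and Mad2l1 under 6 alternatives. The 33 genes became 7 at a log2 fold change beyond 2, where all genes went from 927 to 189, and by the adjusted p-value alone all genes came to 5379. The median log2 fold change was −1.73 in numbers 1 to 3 only and −1.51 in numbers 4 to 6 only. The median over all tested genes stayed between −0.04 and 0.03. The single gene whose BAM15 effect differed between the sets became 0 with no filter on low counts, 5 with DESeq2's Wald test and 0 to 12 with 1 library left out. The 15 genes that differed between BAM15 libraries 4 to 6 and 1 to 3 became 8 to 18 with 1 library left out. The causes were not tested. Ndc80 to Nuf2 passed without BAM15 replicate 2 (0.51, exact permutation test, adjusted p = 0.0049), and Aurkb to Incenp without BAM15 replicate 5 (−1.30, adjusted p = 0.034).

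Libraries with the same number did not deviate together in every pair (correlations −0.10 to 0.52), and no number but 3 and 6 was best matched by itself. Numbers 1 to 3 were all best matched by number 3 of the other condition and numbers 4 to 6 by number 6, so the matches followed the sets rather than the single numbers. With the sets as a block, 942 genes and 33 of the 39 passed. With a replicate block, 933 genes and 34 of the 39 passed, with a median log2 fold change of −1.60, and 0 of the 9 partner ratios passed, where the smallest exact sign-flip p of 0.031 gave an adjusted p of 0.094.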
